A study of Drosophila mojavensis with 127 samples.

Results

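The sex difference of gene expression in Punta Onah flies was the difference between males and females of a single stock of the cactophilic fly Drosophila mojavensis that originated from Punta Onah in Sonora. It was measured as males minus females on the log2 scale, so that a positive value means a higher level in males, and the 4 combinations of host cactus and mating status entered with equal weight. It rests on 32 of the 127 arrays of the series, 16 of males and 16 of females. Males and females were each measured mated on agria, nonmated on agria, mated on organ pipe and nonmated on organ pipe, with 4 replicate arrays per group. All flies were wild type and came from laboratory stocks: PO07 for Punta Onah, OPNM08 for Organ Pipe National Monument, PP08 for Punta Prieta and SQ08 for San Quintin. Agria stands for fermenting pitaya agria (Stenocereus gummosus) and organ pipe for fermenting organ pipe cactus (Stenocereus thurberi). The same difference in the other 3 populations was taken from 32 arrays of Organ Pipe National Monument, 30 of Punta Prieta and 33 of San Quintin. The labels do not state the tissue, the age of the flies or how many flies went into a sample, and each population is represented by a single stock.

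Sex-biased expression in adult Drosophila is known to be strongest in the gonads and reproductive glands. The testis expresses many genes for sperm formation, the male accessory glands make seminal fluid proteins, and the ovary and the fat body supply the products from which eggs are built, among them yolk and eggshell proteins. In RNA from many cells, fewer cells of a type and less RNA per cell cannot be told apart. The files give transcript identifiers without gene names, so the transcripts below are known by identifier only and no role is given for them. Levels are RMA values on the log2 scale of a probe set, and a level of one transcript is not set against that of another.

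The labelled sexes were checked on every array with transcripts chosen in other populations. A sex index was computed as the mean level of the 200 transcripts most higher in males minus the mean level of the 200 most higher in females, each chosen in the 3 populations that the array did not come from. Punta Onah males had indices of 4.08 to 5.01 (median 4.53, n = 16), against -4.46 to -3.52 in Punta Onah females (median -4.15, n = 16). All 32 arrays therefore lay on the side of their label, far from 0. The 4 nonmated males on organ pipe had the highest indices of the Punta Onah males, 4.94 to 5.01, and the other 12 males lay between 4.08 and 4.76. Outside Punta Onah, males ranged from 1.04 to 4.99 and females from -4.92 to -3.28. The lowest male values were 1.04 on replicate 1 of the mated Organ Pipe National Monument males on agria and 2.76 on replicate 1 of the nonmated Punta Prieta males on organ pipe. These 2 arrays enter the comparisons with other populations, and the counts of transcripts called were computed with and without them.

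**Figure D1:**
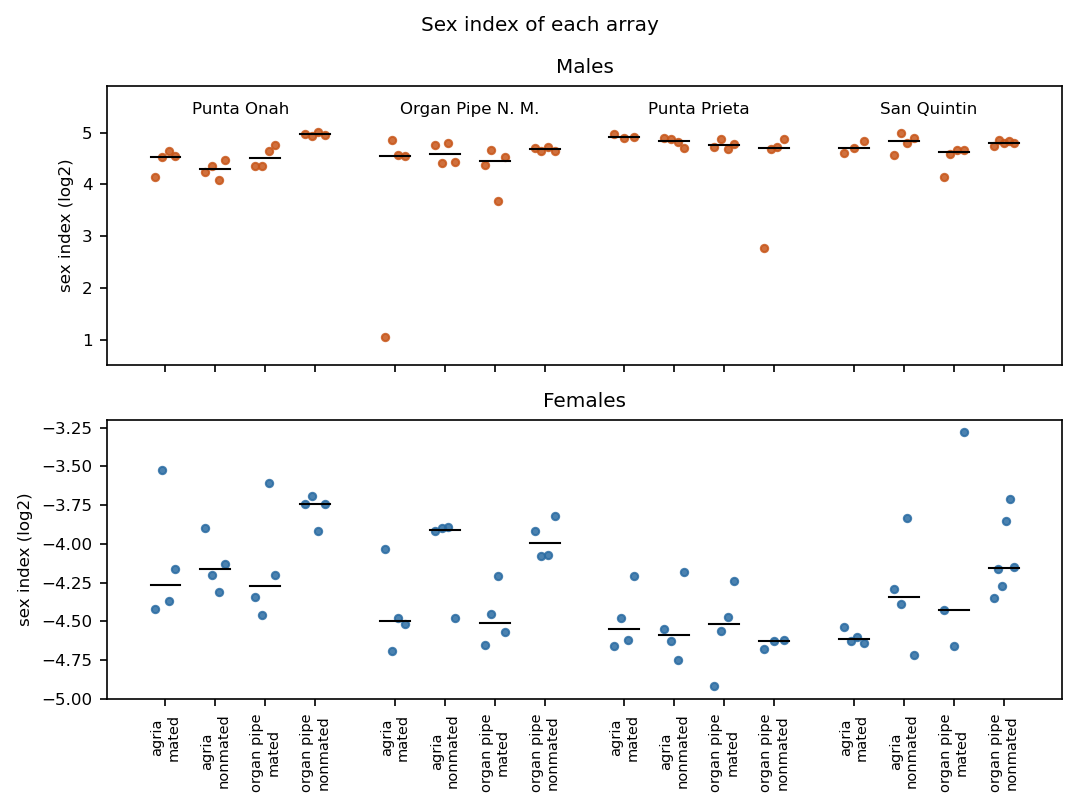
Sex index of each array in log2 units, with males in the upper and females in the lower panel on separate scales. Each point is 1 array and each black line the median of its group. Punta Onah males lie at 4.08 to 5.01 and females at -4.46 to -3.52, and the 4 nonmated males on organ pipe stand above the other Punta Onah males.

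Most of the transcripts measured differed between Punta Onah males and females. Limma called 12613 of 14528 transcripts (86.8%) at an adjusted p under 0.05, 5200 higher (35.8%) and 7413 lower (51%) in males. More transcripts were lower in males, but the large differences were mostly the other way. At least 2-fold differences numbered 2375 higher and 3079 lower in males, 4-fold differences 1446 and 580, 16-fold differences 365 and 62, and 64-fold differences 14 and 4. The median difference over all transcripts was -0.21 and the median size was 0.76 on the log2 scale. Levels on all 16 male arrays lay above those on all 16 female arrays for 2413 transcripts (16.6%) and below them for 3230 (22.2%), and for 8885 (61.2%) the arrays of the sexes overlapped. For 3133 transcripts the 95% interval of the sex difference lay within 0.5 on the log2 scale, and 1759 of these were not called. All Punta Onah males carry array title numbers 1 to 16 and all females 17 to 32. Sex and any effect that follows these numbers cannot be told apart within Punta Onah.

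The 4 transcripts named for sex had the largest differences among those whose male and female arrays did not overlap. FBtr0161592 was between 13.18 and 13.72 on the male arrays (median 13.35), against 5.42 to 6.64 on the female arrays (median 5.77). Its sex difference was 7.51 ± 0.12 (SE, adjusted p = 2.1e-76 in limma). The female levels lay near the lowest value on any array, 4.64, which limits what the size of this difference says. Every group showed it: the stratum differences were 7.63 in mated and 7.67 in nonmated flies on agria, and 7.22 in mated and 7.51 in nonmated flies on organ pipe. FBtr0172595 had levels of 13.65 to 14.92 in males (median 14.02), against 6.06 to 9.57 in females (median 6.74), and a difference of 7.28 ± 0.19 (SE, adjusted p = 3.33e-58 in limma). The highest female value, 9.57, belonged to replicate 3 of the mated females on organ pipe, whose other 3 arrays had 6.06, 7.03 and 6.83. All male arrays still lay above it.

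In the other direction, FBtr0161796 had levels of 7.26 to 10.52 in males (median 8.10), against 14.77 to 15.10 in females (median 14.91). Its difference was -6.76 ± 0.32 (SE, adjusted p = 6.8e-37 in limma). The female arrays were close together, with an SD of 0.09, and the male arrays had an SD of 0.77. FBtr0166499 had levels of 7.06 to 8.76 in males (median 8.02), against 13.84 to 15.19 in females (median 14.79), and a difference of -6.69 ± 0.31 (SE, adjusted p = 2.59e-37 in limma). Mated females had about 15.00 on agria and 15.05 on organ pipe, and nonmated females 14.25 and 14.31 (means, n = 4 each). The sex difference of FBtr0161592, FBtr0161796 and FBtr0166499 was within 0.19 of the mean of the other 3 populations, with adjusted p values of 0.446, 0.711 and 0.679 in limma for the difference between them. For FBtr0161796 and FBtr0166499 that mean includes 2 male arrays near female levels. Replicate 1 of mated Organ Pipe National Monument males on agria had 14.99 and 14.14. Replicate 1 of nonmated Punta Prieta males on organ pipe had 14.11 and 14.39. The other arrays of these groups had 7.37 to 8.36. Both arrays bring the mean nearer to 0 and widen the SE, so these p values do not show likeness. FBtr0172595 differed less between the sexes in Punta Onah, 7.28 against 8.00 in the other 3 populations (difference -0.72 ± 0.22, SE; adjusted p = 0.00476 in limma).

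**Figure D2:**
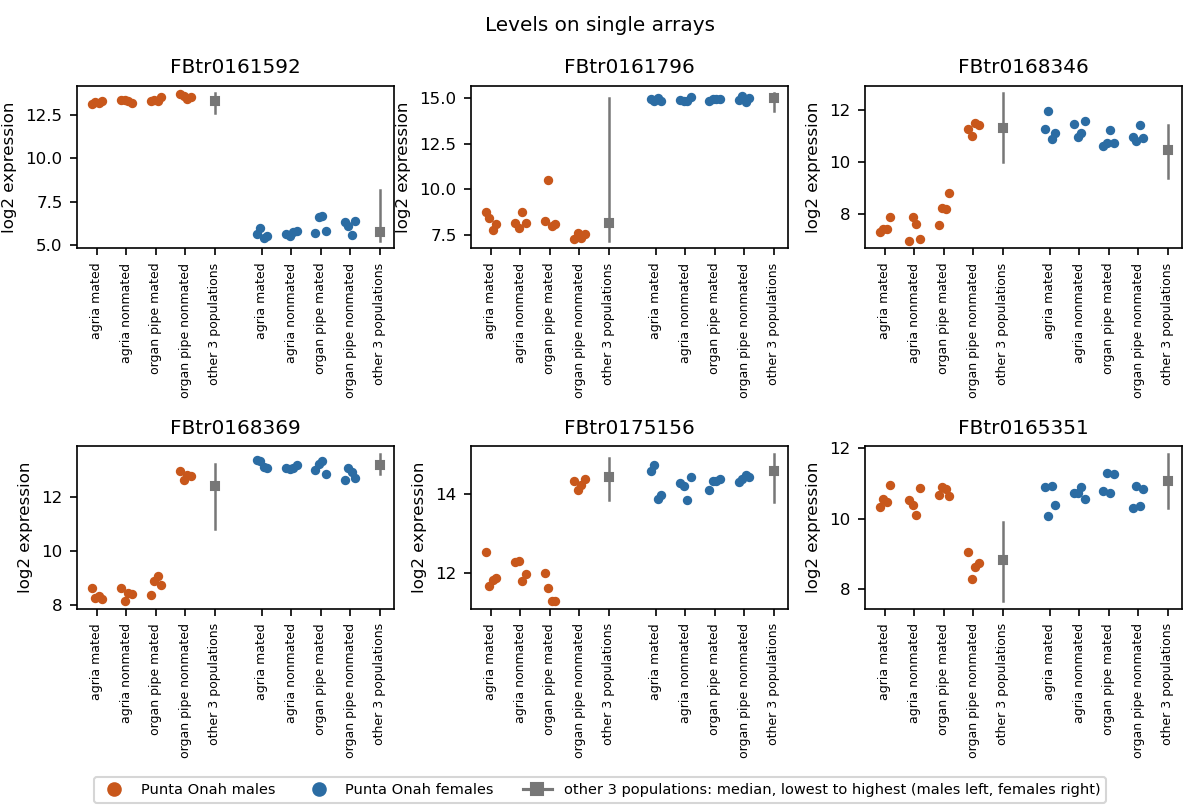
Levels of 6 transcripts on the log2 scale, with an axis of its own for each. Orange points are the Punta Onah male arrays and blue points the female arrays of each host and mating group, and the grey squares and lines give the median and the range of the other 3 populations, males left and females right. FBtr0161592 and FBtr0161796 separate the sexes in all 4 strata, whereas in FBtr0168346, FBtr0168369, FBtr0175156 and FBtr0165351 the nonmated males on organ pipe stand apart from the other 3 male groups.

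Within single strata, each with 4 male and 4 female arrays, limma called 10764 transcripts in mated flies on agria (74.1%), 10393 in nonmated flies on agria (71.5%), 11171 in mated flies on organ pipe (76.9%) and 11068 in nonmated flies on organ pipe (76.2%). In each stratum more transcripts were lower than higher in males, 6174 against 4590, 5793 against 4600, 6594 against 4577 and 6935 against 4133 in that order. Of the transcripts called over all strata, 10676 had the same sign in all 4 strata, and 1937 changed sign between strata. In all 4 strata 3019 transcripts were called higher and 4287 lower in males. The sex differences of the strata correlated at r = 0.882 to 0.969 across transcripts, which are not independent replicates. The lowest correlation was that of nonmated flies on agria with nonmated flies on organ pipe. When every array was moved to a common median, the median difference over all transcripts was -0.274 in mated flies on agria (-0.17 as deposited) and -0.394 in mated flies on organ pipe (-0.238).

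Transcripts were also placed in classes by the sex difference of the other 3 populations, and the Punta Onah arrays, which the classes did not use, were read in each class. The 448 transcripts at least 16-fold higher in males elsewhere were all called higher in Punta Onah males, with a median difference of 4.36, against 4.51 in the other 3 populations. Their median level was 13.03 in Punta Onah males, against 8.48 in Punta Onah females. The 1076 transcripts 4- to 16-fold higher in males were likewise all called, with medians of 2.85 in Punta Onah and 3.03 elsewhere. The 761 that were 2- to 4-fold higher in males had medians of 1.25 and 1.33, and 730 of them were called in the same direction, 8 in the opposite one and 23 not at all. All 59 transcripts at least 16-fold higher in females were called lower in Punta Onah males, with a median of -4.61 in Punta Onah and -4.68 elsewhere. The 595 transcripts 4- to 16-fold higher in females had medians of -2.24 and -2.43 and were all called. The 2363 that were 2- to 4-fold higher in females had medians of -1.24 and -1.36, and 2339 were called in the same direction. In the 4 classes of at least 4-fold every transcript was thus called in the direction of the other populations, with medians of smaller size. Punta Onah minus the other 3 populations was also read by stratum, as medians. In the 16-fold male class these were -0.18 and -0.26 in mated and nonmated flies on agria, and -0.10 and -0.27 on organ pipe. In the 4- to 16-fold classes they were -0.21, -0.19, -0.04 and -0.26 (male), and 0.29, 0.23, 0.22 and 0.09 (female). In the 16-fold female class they were 0.16, 0.67, 0.19 and -0.19, wider only in the last stratum.

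The narrowing was tested transcript by transcript as the Punta Onah sex difference minus the mean of the other 3. Over all transcripts this difference was called in 7334 (50.5%), 3896 more positive (26.8%) and 3438 more negative (23.7%) in Punta Onah. Among the transcripts at least 16-fold higher in males, 170 of 448 were narrower and 23 wider in Punta Onah, and in the 4- to 16-fold class 378 of 1076 were narrower and 56 wider. In the 2- to 4-fold class higher in males 254 of 761 were narrower and 98 wider. Among those higher in females, 13 of 59 were narrower and 5 wider in the 16-fold class, 253 of 595 and 63 in the 4- to 16-fold class, and 1015 of 2363 and 300 in the 2- to 4-fold class. Within 2-fold, 2416 of 9226 were narrower and 2290 wider. Of all 14528 transcripts 4499 were narrower and 2835 wider, so 13 of 59 is a smaller share than that over all transcripts. A class set by the values of other populations by itself tends to give smaller sizes in the population read. The same reading with the classes set anew gave larger sizes in Punta Prieta (4.71 against 4.49 in the 16-fold male class) and San Quintin (4.63 against 4.53), and smaller sizes in Organ Pipe National Monument (4.45 against 4.50). The populations that set these classes include Punta Onah each time, so these readings are no separate check. In the 16-fold female class Organ Pipe National Monument had -4.31 against -4.63, a larger narrowing of the median than in Punta Onah. That value includes replicate 1 of its mated males on agria, the male array with the lowest sex index. The index transcripts higher in females had a mean of 11.40 on it, against 8.59 to 8.71 on the other arrays of that group. The Punta Onah reference of this class, -4.68, holds that array too, and the classes were not read without it. Across transcripts, the slope of the sex difference on the mean of the other 3 populations was 0.934 for Punta Onah (r = 0.961), 0.943 for Organ Pipe National Monument, 1.047 for Punta Prieta and 1.042 for San Quintin.

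Replicate arrays differed in spread as well. In the class at least 16-fold higher in males, the median SD within groups was 0.172 in Punta Onah males, against 0.243 in Punta Onah females. In the class at least 16-fold higher in females it was 0.362 in males, against 0.231 in females. Over all transcripts it was 0.233 in males and 0.200 in females. The SD was larger in males for 24.6% of the class higher in males and 54.2% of the class higher in females, against 64.1% of all transcripts.

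Large departures from the other populations were found at all sizes of sex difference. Of the 316 transcripts whose sex difference was at least 2-fold more negative in Punta Onah (2.18% of all), 219 lay within 2-fold between the sexes in the other 3 populations. Of the 98 that were at least 2-fold more positive (0.675%), 51 did. That class holds 9226 of all 14528 transcripts, so neither count says that it is over-represented. Directions opposed each other in 506 transcripts that were called both in Punta Onah and in the mean of the other 3, where 91.8% of all transcripts were called. Of these, 294 were higher and 212 lower in Punta Onah males. Most were small, with 28 at least 2-fold in Punta Onah and 1 at least 2-fold in both.

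**Figure D3:**
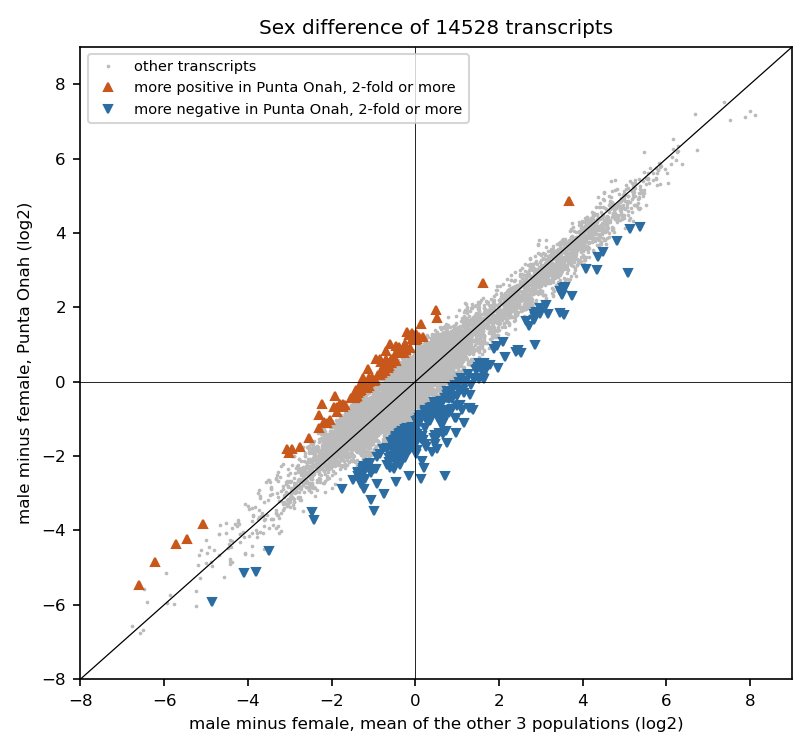
Sex difference of each transcript in Punta Onah (vertical axis) against the mean of the other 3 populations (horizontal axis), both males minus females on the log2 scale, with the line of equal values. Orange triangles mark the 98 transcripts called and at least 2-fold more positive in Punta Onah and blue triangles the 316 at least 2-fold more negative. The marked transcripts lie on both sides of the line where females were higher elsewhere or the sexes were within 2-fold. Where males were higher elsewhere they lie almost only below it. In the 2- to 4-fold, 4- to 16-fold and 16-fold male classes 1, 1 and 0 were more positive, and 37, 25 and 8 more negative.

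FBtr0168346 had the largest opposed difference with lower levels in Punta Onah males. Mated males on agria had 7.28, 7.41, 7.42 and 7.87, against 11.27, 11.96, 10.90 and 11.12 in mated females on agria. Nonmated males on agria had 6.95, 7.87, 7.59 and 7.03, against 11.48, 10.96, 11.13 and 11.58 in nonmated females on agria. Mated males on organ pipe had 7.57, 8.22, 8.20 and 8.79, against 10.63, 10.74, 11.26 and 10.73 in mated females on organ pipe. The males of these 3 groups lay below every female. Nonmated males on organ pipe had 11.28, 11.02, 11.50 and 11.44, against 10.98, 10.83, 11.44 and 10.93 in nonmated females on organ pipe, so here the sexes overlapped. The sex difference was -2.53 ± 0.14 (SE, adjusted p = 5.38e-33) in Punta Onah, against 0.71 ± 0.08 (SE, adjusted p = 8.42e-14) in the other 3 populations, and the populations differed by -3.24 ± 0.16 (SE, adjusted p = 9.11e-33), all in limma. In the other 3 populations males ranged from 10.01 to 12.66 and females from 9.38 to 11.44. Without the 12 male arrays of those 3 groups, which left nonmated flies on organ pipe alone, the Punta Onah sex difference was 0.26 (adjusted p = 0.372 in limma).

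FBtr0165270 had the largest opposed difference with higher levels in Punta Onah males. Its levels were 8.71, 8.69, 7.10 and 8.09 in mated males on agria, against 6.24, 6.08, 6.05 and 6.07 in the females of that stratum. They were 6.70, 6.30, 7.03 and 6.46 in nonmated males on organ pipe, against 6.67, 6.45, 6.05 and 6.36 in the females of that stratum. The sexes did not overlap in the first and overlapped in the second. The sex difference was 2.04 and 1.72 in mated and nonmated flies on agria, and 1.38 and 0.24 in mated and nonmated flies on organ pipe. Over all strata it was 1.34 ± 0.16 (SE, adjusted p = 2.58e-12 in limma), against -0.21 ± 0.10 (SE, adjusted p = 0.0349 in limma) in the other 3 populations. Singly these had -0.38 (Organ Pipe National Monument), -0.21 (Punta Prieta) and -0.05 (San Quintin). Punta Onah females, at 5.92 to 7.15, and other males, at 5.51 to 7.43, lay near the lowest value on any array, 4.64. This limits what the size of the difference and the opposed sign say.

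The Punta Onah count against the other 3 populations, 7334, stood beside 3185 for Organ Pipe National Monument (21.9%), 2098 for Punta Prieta (14.4%) and 860 for San Quintin (5.92%), each set against its own other 3. These 4 comparisons share arrays. Against single populations the Punta Onah sex difference was called in 6729 transcripts for Organ Pipe National Monument (46.3%), 6041 for Punta Prieta (41.6%) and 5374 for San Quintin (37%), which share the Punta Onah arrays. Calls in the males were more frequent: Punta Onah males differed from males of the other 3 populations in 8778 transcripts (60.4%) and Punta Onah females from females in 2725 (18.8%). Of the 7334 transcripts, 5397 were called between populations in males only, 605 in females only, 887 in both and 445 in neither, and the shift was larger in males for 6182. Without the 2 low male arrays none of these counts moved by more than 1.5 times. The count for Organ Pipe National Monument was 1045 without replicate 3 and 1603 without replicate 2. That for Punta Prieta was 987 to 1333 without replicate 1, 2 or 3. Leaving out replicate 2, 4 or 1 left 151, 294 or 350 calls for San Quintin. Moving all arrays to a common median made the more positive share of the calls 44.4% (54.7% as deposited) against Punta Prieta, 66% (44.6%) for Punta Prieta against its other 3, and 36.9% (57.7%) for San Quintin against its other 3.

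The difference from the other populations was not alike in the 4 strata. Limma called 4864 transcripts in mated flies on agria (33.5%), 4864 in nonmated flies on agria (33.5%), 2215 in mated flies on organ pipe (15.2%) and 24 in nonmated flies on organ pipe (0.165%). At an unadjusted p under 0.05 the last stratum had 2322 transcripts, against 6390, 6293 and 4635 in the others in that order. With array weights, whose estimation did not fully converge, the counts on organ pipe were 3741 in mated and 3710 in nonmated flies. Array weights raised counts in other comparisons as well, and why the count of the last stratum changed was not tested. At least 2-fold differences numbered 644 more positive and 764 more negative in mated flies on agria, 649 and 719 in nonmated flies on agria, 146 and 623 in mated flies on organ pipe, and 8 and 11 in nonmated flies on organ pipe. The contrast of the first 3 strata with the last was tested itself and was called in 2478 transcripts (17.1%), 1392 more positive and 1086 more negative in the first 3. The choice of this contrast was made after the counts by stratum were seen. With a common array median 43.3% of these calls were more positive, compared with 56.2% as deposited, and in mated flies on organ pipe 29% compared with 49.1%. For nonmated flies on organ pipe the more positive share became 52.6% after quantile normalization and 52.4% with a common median, compared with 41.7% as deposited.

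Calls were also counted within each sex. Punta Onah males differed from males of the other 3 populations in 5752 transcripts when mated on agria (39.6%), 7182 when nonmated on agria (49.4%), 5618 when mated on organ pipe (38.7%) and 975 when nonmated on organ pipe (6.71%). Punta Onah females differed from other females in 1046 (7.2%), 124 (0.854%), 96 (0.661%) and 184 (1.27%) in the same strata. With array weights the female counts were 3301, 3994, 2509 and 2264, and nonmated males on organ pipe had 5413. The running numbers in the array titles divide the males in the same way: the 3 male groups with many calls carry the numbers 1 to 12, the nonmated males on organ pipe 13 to 16 and the females 17 to 32. The array type holds 12 arrays to a slide. The labels name no slide, and whether the numbers follow slides was not tested, so that a slide shared by arrays 1 to 12 and a biological difference of these males cannot be told apart. Without these 12 male arrays, only nonmated flies on organ pipe were compared, in Punta Onah and in the other 3 populations alike. This is the contrast of that stratum, which had 24 calls, fitted anew. It gave 17 calls and is no separate check.

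**Figure D4:**
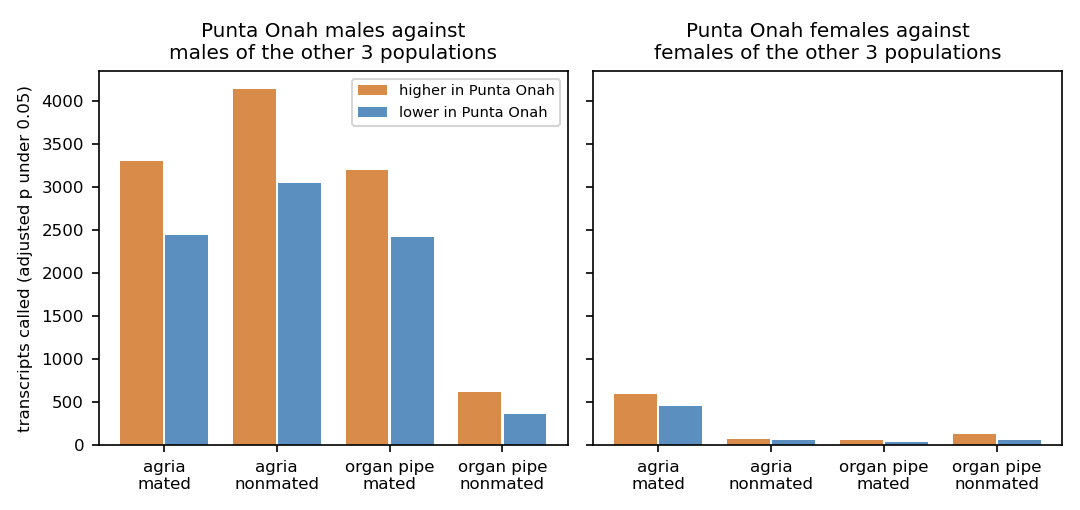
Transcripts called in limma between Punta Onah and the other 3 populations in each stratum, males left and females right, as counts higher (orange) and lower (blue) in Punta Onah. The bars start at 0. Males have 5752, 7182 and 5618 calls in the first 3 strata and 975 when nonmated on organ pipe, and females have at most 1046.

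Single replicates moved several of these counts. Leaving out replicate 2 gave 2546 calls in mated flies on agria. In mated flies on organ pipe the count was 692 without replicate 1 and 420 without replicate 3, and in nonmated flies on organ pipe it was 6, 10, 0 and 4 without replicates 1 to 4, and 43 without the 2 low male arrays. The male count when mated on organ pipe was 3600 without replicate 3, and that when nonmated on organ pipe was 293 without replicate 2 and 333 without replicate 3. The female counts lay between 118 and 1930 when mated on agria, 25 and 103 when nonmated on agria, 16 and 73 when mated on organ pipe, and 21 and 282 when nonmated on organ pipe. The contrast of the first 3 strata with the last was 1425 without replicate 2 and 1372 without replicate 3. With a common array median the share of male calls higher in Punta Onah was 47.4% (57.5% as deposited) when mated on agria and 40.6% (56.9%) when mated on organ pipe. For females it was 34.4% (57%) when mated on agria and 39.1% (55.6%) when nonmated on agria, the last 41.2% after quantile normalization. In nonmated females on organ pipe quantile normalization made it 55.7% (69.6%).

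The lists of mated flies on agria, 644 transcripts more positive and 764 more negative by at least 2-fold, were read in the other strata. The arrays of those strata entered the choice only through the estimate of the spread, which all groups share in limma. In nonmated flies on agria all 644 were again more positive (median 1.04) and 762 of 764 more negative (median -1.19). In mated flies on organ pipe 584 of 644 had the same sign (median 0.59) and 718 of 764 (median -0.78). In nonmated flies on organ pipe 448 of 644 had the same sign (median 0.16) and 493 of 764 (median -0.16), and 2 and 4 were called in that direction, against 0.0688% and 0.0964% of all transcripts. The medians over all transcripts in these strata were 0.05, 0.06 and -0.03. The differences of mated flies on agria correlated across transcripts at 0.871, 0.63 and 0.184 with the other strata in that order, as a description.

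The levels of the 2 lists show where the groups lay. The more positive list had a median level of 9.54 in mated males on agria, 9.57 in nonmated males on agria and 9.22 in mated males on organ pipe, and 8.61 in nonmated males on organ pipe. In the 12 male groups of other populations it lay between 8.47 and 8.75. The more negative list had medians of 8.99, 9.09 and 9.23 in the first 3 Punta Onah male groups and 10.31 in nonmated males on organ pipe, against 10.00 to 10.67 in males of other populations. Female groups of all populations had medians of 9.28 to 9.85 for the first list and 9.26 to 9.88 for the second. The mean of the first list minus the mean of the second was -0.58 to 1.00 on the 12 arrays of the first 3 groups (median 0.25), -1.92 to -1.33 on the 4 arrays of nonmated males on organ pipe, and -2.73 to -0.98 on the 47 male arrays of other populations. The 12 arrays did not overlap with the other males. They lay nearer to the female arrays, which had -1.67 to -0.04 in Punta Onah and -1.03 to 0.95 elsewhere. For mated flies on agria these levels follow from the choice of the lists.

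**Figure D5:**
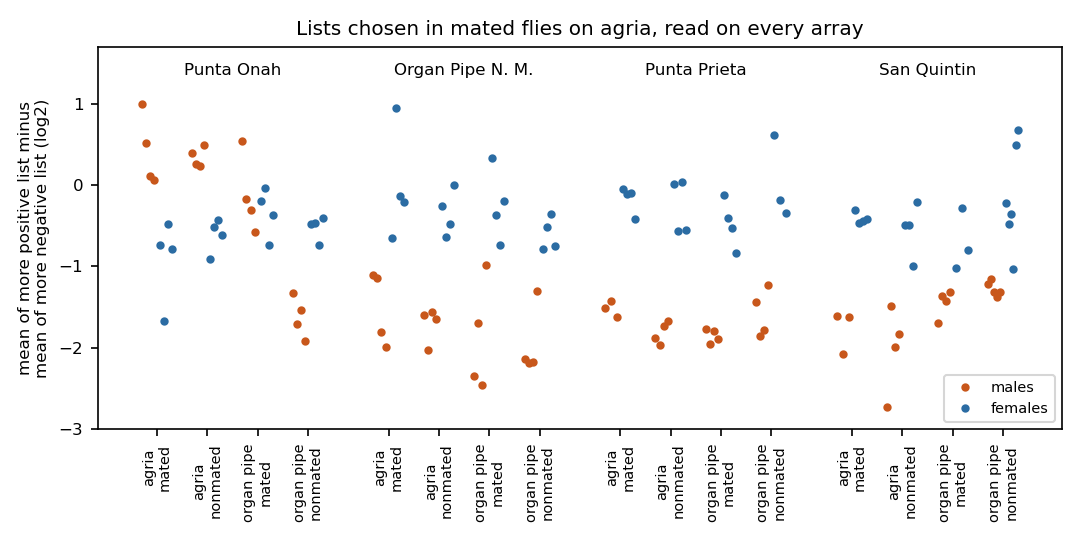
Mean level of the 644 more positive transcripts minus the mean of the 764 more negative ones on each of the 127 arrays, in log2 units, for males (orange) and females (blue) of each group. The lists were chosen in mated flies on agria. Punta Onah males lie at -0.58 to 1.00 in the first 3 groups and at -1.92 to -1.33 when nonmated on organ pipe, beside other males at -2.73 to -0.98.

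The transcripts named for the comparison with the other 3 populations followed this division. FBtr0175156 had 12.53, 11.67, 11.82 and 11.88 in mated males on agria, against 14.58, 14.73, 13.87 and 13.98 in mated females on agria. In mated flies on organ pipe it had 11.99, 11.62, 11.29 and 11.30 in males, against 14.09, 14.33, 14.34 and 14.37 in females. In nonmated flies on organ pipe it had 14.32, 14.11, 14.24 and 14.39 in males, against 14.31, 14.37, 14.48 and 14.43 in females. The sexes were thus apart in the first 2 of these strata and overlapped in the last. Over all strata the Punta Onah difference was -1.82 ± 0.07 (SE), against -0.12 ± 0.04 (SE) elsewhere, and the populations differed by -1.69 ± 0.09 (SE, adjusted p = 2.35e-31 in limma). Without arrays 1 to 12, nonmated flies on organ pipe were compared alone in every population, so the values of the other populations changed too. The difference between populations was then 0.24 (adjusted p = 0.47 in limma), with a sex difference of -0.13 in Punta Onah.

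FBtr0165351 was lower in males of the other populations, at 7.65 to 9.90 in males against 10.29 to 11.85 in females. In Punta Onah, males had 10.33, 10.57, 10.46 and 10.95 when mated on agria, against 10.90, 10.08, 10.94 and 10.38 in the females of that stratum. Nonmated males on organ pipe had 9.05, 8.27, 8.62 and 8.75, against 10.30, 10.92, 10.35 and 10.85 in the females of that stratum. The sexes overlapped in the first and were apart in the second, where the males lay within the range of other males. The sex difference was -0.61 ± 0.11 (SE) in Punta Onah, against -2.23 ± 0.07 (SE) elsewhere, a difference of 1.62 ± 0.13 (SE, adjusted p = 1.58e-18 in limma). Without arrays 1 to 12, with nonmated flies on organ pipe compared alone in every population, it was 0.63 and no longer called.

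FBtr0168634 had a sex difference of 0.49 ± 0.07 (SE) in Punta Onah, against -0.57 ± 0.04 (SE) elsewhere, and the populations differed by 1.06 ± 0.09 (SE, adjusted p = 2.84e-18 in limma). Males ranged from 11.19 to 12.45 (median 12.12), against 11.00 to 11.85 in females (median 11.51). Its sex difference was 0.75 and 0.61 in mated and nonmated flies on agria, 0.75 in mated flies on organ pipe and -0.15 in nonmated flies on organ pipe.

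The sex difference of Punta Onah flies varied with the host cactus in 4557 transcripts (31.4%), 2071 more positive and 2486 more negative on organ pipe than on agria. The more positive share was 45.4% as deposited, 40% with a common array median, 51.5% after quantile normalization and 59.6% without the dimmest 25% of transcripts, so the majority direction depended on the processing. At least 2-fold differences numbered 303 and 583. Limma called 73 transcripts in mated flies (0.502%) and 4553 in nonmated flies (31.3%), and a 3-way test of sex, host and mating, which sets mated against nonmated flies, called 210 transcripts (1.45%). In nonmated flies organ pipe and agria are also the contrast of male arrays 13 to 16 with male arrays 5 to 8, so that host and any effect that follows the array numbers cannot be told apart. The 3-way test rests on the same arrays and has the same limit. The same test gave 29 calls in San Quintin (0.2%) and 0 in Organ Pipe National Monument and Punta Prieta, where 1276 and 748 transcripts had an unadjusted p under 0.05. With array weights the count was 7010 for Punta Onah, 1029 for San Quintin, 1485 for Punta Prieta and 566 for Organ Pipe National Monument. Without replicate 3 the Punta Onah count was 2911, that in nonmated flies 2774, that in mated flies 1 and that of the 3-way test 25. The count in mated flies was also 27 without replicate 1 and 0 without replicate 4, and the 3-way count 121 without replicate 1 and 33 without replicate 2. In San Quintin the count was 0 to 5 without each replicate, and in Organ Pipe National Monument 9 without replicate 1 and 5 without replicate 4. The share more positive on organ pipe in mated flies was 41.1%, but 55.2% after quantile normalization and 26.1% with a common array median. In San Quintin it was 51.7%, and 14.7% with a common median, and in the 3-way test it was 35.2%, and 24% after quantile normalization.

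FBtr0168369 had the smallest p among transcripts more positive on organ pipe. Mated males on organ pipe had 8.36, 8.88, 9.07 and 8.73, against 13.02, 13.22, 13.34 and 12.88 in the females of that stratum. Nonmated males on organ pipe had 12.97, 12.66, 12.83 and 12.80, against 12.64, 13.07, 12.94 and 12.73 in the females. The sexes lay far apart in the mated and overlapped in the nonmated flies on organ pipe. On agria the levels were 8.64, 8.26, 8.33 and 8.21 in mated males, against 13.39, 13.33, 13.14 and 13.09 in mated females, and 8.61, 8.14, 8.45 and 8.41 in nonmated males, against 13.09, 13.06, 13.10 and 13.21 in nonmated females. The sexes lay far apart in both. The sex difference was -4.36 in mated and -0.03 in nonmated flies on organ pipe, and -4.88 in mated and -4.72 in nonmated flies on agria. On organ pipe it was more positive by 2.60 ± 0.24 (SE, adjusted p = 1.81e-14), and in mated flies more negative, by -2.25 ± 0.24 (SE, adjusted p = 2.42e-11), both in limma. In the other 3 populations the sex difference was -0.99 ± 0.07 (SE). The Punta Onah value stood -2.91 ± 0.17 (SE, adjusted p = 3.63e-27 in limma) from that of Organ Pipe National Monument. Without arrays 1 to 12, with nonmated flies on organ pipe compared alone in both populations, that distance was 0.36 (adjusted p = 0.904 in limma).

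FBtr0166760 had sex differences of -1.02 in mated and 0.47 in nonmated flies on organ pipe, and of -2.13 in mated and -2.96 in nonmated flies on agria. The host difference of these was 2.26 ± 0.21 (SE, adjusted p = 1.81e-14 in limma). Its nonmated males on organ pipe had 10.48, 10.24, 10.10 and 10.35 and its nonmated males on agria 7.47, 7.04, 7.24 and 7.38, whereas all female arrays lay between 9.63 and 10.29. FBtr0165842 and FBtr0165505 went the other way. Their sex differences were -0.53 and -0.49 in mated flies on organ pipe, -1.59 and -1.37 in nonmated flies on organ pipe, 0.78 and 0.62 in mated flies on agria, and 1.27 and 1.43 in nonmated flies on agria. The host differences were -2.08 ± 0.20 (SE, adjusted p = 6.17e-14 in limma) and -1.96 ± 0.20 (SE, adjusted p = 1.44e-12 in limma). Averaged over strata neither had a called sex difference in Punta Onah, with -0.02 ± 0.10 (SE) for FBtr0165842 and 0.05 ± 0.10 (SE) for FBtr0165505.

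The sex difference varied with mating status in 352 transcripts (2.42%), 187 more positive and 165 more negative in mated than in nonmated flies. On organ pipe, mated against nonmated males is also male arrays 9 to 12 against 13 to 16. Mating and any effect that follows the array numbers cannot be told apart there. At least 2-fold differences were 13 and 102 (0.702%). Of the 102 more negative ones, 45 lay in the classes at least 4-fold higher in females elsewhere, 9 of them in the 16-fold class of 59 transcripts. The direction of the 352 depended on scaling, with 53.1% more positive as deposited, 39.5% after quantile normalization and 24.2% with a common array median. The count was 223, 45 and 126 without replicates 1, 2 and 3.

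FBtr0175092 was the transcript with the larger of the positive mating differences named. Mated males had 11.99, 12.52, 11.70 and 12.12 on agria and 12.28, 12.61, 12.64 and 12.68 on organ pipe. Nonmated males had 10.69, 10.38, 10.36 and 10.30 on agria and 10.69, 10.50, 10.31 and 10.27 on organ pipe. All 16 female arrays lay between 8.60 and 9.70, below every male, and the mated males lay above the nonmated males on both hosts. Mated males of the other 3 populations also had higher means than their nonmated males on both hosts. On agria these were 12.39 against 11.27 in Organ Pipe National Monument, 13.25 against 11.32 in Punta Prieta and 13.42 against 11.71 in San Quintin. In Punta Onah, the comparison continues as follows. The sex difference was 2.93 and 3.41 in mated flies on agria and organ pipe, and 1.61 and 1.27 in nonmated flies on agria and organ pipe, a difference by mating of 1.74 ± 0.23 (SE, adjusted p = 7.28e-08 in limma). The mean sex difference of 2.30 ± 0.11 (SE) was smaller than that of the other 3 populations, 3.28 ± 0.07 (SE), by -0.98 ± 0.13 (SE, adjusted p = 3.33e-09 in limma). FBtr0164125 had a mating difference of 0.86 ± 0.11 (SE, adjusted p = 7.28e-08 in limma), from sex differences of 0.80 and 0.76 in mated flies on agria and organ pipe, and 0.12 and -0.26 in nonmated flies. For FBtr0164125, too, mated males of the other 3 populations had higher means than nonmated males on both hosts. FBtr0175156 had one of -1.41 ± 0.15 (SE, adjusted p = 2.42e-11 in limma), which, as for FBtr0168369, came with the nonmated flies on organ pipe, where the sex difference was -0.13, against -2.09 in nonmated flies on agria.

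Against single populations 3 further transcripts had the smallest p values. FBtr0163850 was lower in males of all 4 populations, by -0.43 ± 0.08 (SE) in Punta Onah, against -1.59 in Organ Pipe National Monument, -1.33 in Punta Prieta and -1.47 in San Quintin. Its male arrays in Punta Onah lay between 10.56 and 11.89 (median 11.32), against 11.00 to 11.86 in females (median 11.63). The difference from Organ Pipe National Monument was 1.16 ± 0.11 (SE, adjusted p = 2.91e-14 in limma). Without arrays 1 to 12, with nonmated flies on organ pipe compared alone in both populations, it was 0.68 and no longer called.

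FBtr0174094 and FBtr0164933 had sex differences nearer to 0 in Punta Onah and Organ Pipe National Monument than in Punta Prieta and San Quintin. The sex difference of FBtr0174094 was -0.39 ± 0.14 (SE) in Punta Onah, against -0.70, -2.75 and -2.32 in Organ Pipe National Monument, Punta Prieta and San Quintin. It differed from Punta Prieta by 2.36 ± 0.21 (SE, adjusted p = 1.3e-16 in limma). Levels were 9.23 to 10.23 in Punta Onah males (median 9.85), against 8.53 to 10.95 in Punta Onah females (median 10.25), so the sexes overlapped. FBtr0164933 had a sex difference of 0.43 ± 0.10 (SE) in Punta Onah, against -0.11, -1.17 and -0.97 in the others in that order. It differed from Punta Prieta by 1.60 ± 0.14 (SE, adjusted p = 2.03e-16) and from San Quintin by 1.40 ± 0.14 (SE, adjusted p = 2.66e-13), both in limma. Its Punta Onah levels, 5.50 to 6.50 in males and 5.28 to 5.93 in females, lay near the lowest value on any array, 4.64. Organ Pipe National Monument levels, 5.11 to 6.13 in males and 5.22 to 6.41 in females, did as well. Punta Prieta had 6.77 to 7.64 in males and 7.79 to 9.03 in females, and San Quintin 6.81 to 8.43 and 8.20 to 8.87. This limits what its fold change and the smaller sex differences of the first populations say. The differences of FBtr0174094 from Punta Prieta, and of FBtr0164933 from Punta Prieta and San Quintin, were called without arrays 1 to 12 as well. That comparison used nonmated flies on organ pipe alone in every population.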

How the data were processed

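The deposited values are log2 expression levels, which the authors produced with RMA, per the submitters' processing notes, which give no version. RMA corrects background, normalizes arrays and summarises the probes of each transcript. They were read from the series value table, with 127 arrays and 14528 transcripts. Their range, 4.64 to 15.78, is the basis for taking them as log2 values. Array medians in Punta Onah were 10.44 to 10.64 in males and 10.42 to 10.57 in females. Probe-level files, slides and scan dates were not used here, so background and saturation stayed unexamined. Precision is limited by how many arrays a group has. No 2 arrays held identical values.

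Groups and replicate numbers came from the titles. In San Quintin 4 pairs of arrays with the same number were averaged, which left 123 replicates. Nothing in the labels says that replicates were separate cultures, so p-values measure only a spread between samples that may be technical. With limma 3.58.1 in R 4.3.3 1 mean per group was fitted for 32 groups (lmFit, contrasts.fit, eBayes; 91 residual degrees of freedom), with two-sided tests and Benjamini-Hochberg adjustment over all 14528 transcripts. Calls were made at an adjusted p under 0.05. The method was tested on simulated data.

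The comparisons, classes and lists were chosen with earlier results of these data known, and the 19 tests by stratum, by sex within a stratum, and of sex by host within mating states and in other populations were added after the values were seen. At most 2 transcripts per direction and comparison were named: for sex, the largest called differences with 1 sign in all strata and no overlap of male and female arrays; for interactions, the smallest p values; and, in each direction, the largest difference opposed to the other populations. The identifiers matched none of the 15130 genes of the RefSeq table given (assembly ASM1815372v1), so the planned lists of ovary, testis, accessory gland and sex determination genes could not be run and no sequences are shown.

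Alternatives were quantile normalization applied again, moving arrays to a common median, removal of the dimmest 25% of transcripts, each array as its own replicate, the replicate number as a block, array weights, a trended and robust prior, a fit to the populations concerned, leaving out each replicate number, leaving out the 2 low male arrays of other populations, and, added after the values were seen, leaving out male arrays 1 to 12 of Punta Onah.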

Additional observations from a re-analysis of the deposited data

Results flagged for a closer look

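On 10 of the 152 groups of 4 arrays examined for the sex index and the named transcripts, 1 array lay far from the other 3 by Dixon's test, which chance does for about 1 group in 20. Among males these were FBtr0161796 mated on organ pipe (10.52, the others 8.00 to 8.27), FBtr0166499 nonmated on agria (8.05, the others 8.51 to 8.59), FBtr0168634 mated on agria (12.31, the others 12.05 to 12.07) and FBtr0163850 nonmated on agria (10.91, the others 11.30 to 11.37). Among females they were FBtr0165270 mated on agria (6.24, the others 6.05 to 6.08), FBtr0164125 nonmated on agria (11.63, the others 11.40 to 11.41), FBtr0175156 mated on organ pipe (14.09, the others 14.33 to 14.37), FBtr0168634 mated on agria (11.00, the others 11.47 to 11.53), FBtr0163850 nonmated on agria (11.85, the others 11.55 to 11.58) and FBtr0174094 mated on agria (9.70, the others 10.83 to 10.91).

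The sex difference itself differed between groups of flies, by limma's test of that difference, in the named transcripts and in the counts below. By host, organ pipe minus agria, it differed by 2.60 in FBtr0168369, 2.26 in FBtr0166760, -2.08 in FBtr0165842 and -1.96 in FBtr0165505. By mating, mated minus nonmated, it differed by 0.86 in FBtr0164125, 1.74 in FBtr0175092, -1.41 in FBtr0175156 and -2.25 in FBtr0168369. Punta Onah minus the mean of the other 3 populations gave 1.62 in FBtr0165351, 1.06 in FBtr0168634, -3.24 in FBtr0168346 and -1.69 in FBtr0175156. Punta Onah minus Organ Pipe National Monument gave 1.16 in FBtr0163850, 1.60 in FBtr0165351, -3.32 in FBtr0168346 and -2.91 in FBtr0168369. Punta Onah minus Punta Prieta gave 2.36 in FBtr0174094, 1.60 in FBtr0164933, -3.40 in FBtr0168346 and -1.79 in FBtr0175156. Punta Onah minus San Quintin gave 1.69 in FBtr0165351, 1.40 in FBtr0164933, -3.01 in FBtr0168346 and -1.66 in FBtr0175156.

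As counts of transcripts, sex by host was called in 4557, with 73 in mated and 4553 in nonmated flies, and sex by mating in 352. The 3-way test of sex, host and mating called 210, and sex by host in San Quintin 29. Against its other 3 populations the sex difference was called in 7334 transcripts for Punta Onah, 3185 for Organ Pipe National Monument, 2098 for Punta Prieta and 860 for San Quintin. Punta Onah against single populations gave 6729, 6041 and 5374 for Organ Pipe National Monument, Punta Prieta and San Quintin. By stratum, Punta Onah against the other 3 gave 4864 in mated and 4864 in nonmated flies on agria, 2215 in mated and 24 in nonmated flies on organ pipe, and 2478 for the first 3 strata against the last.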

How the results depend on the processing

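The counts for sex in Punta Onah stayed within 1.5 times under every alternative, 12202 to 12364 without each replicate number. Named transcripts kept direction and call in 374 of 389 alternatives, 11 were no longer called and 4 changed sign, all 15 without male arrays 1 to 12 of Punta Onah: FBtr0168346 for sex (0.26), FBtr0175156 against the other 3 populations (0.24) and Punta Prieta (0.30), and FBtr0168369 against Organ Pipe National Monument (0.36). Without those arrays the counts were 17 against the other 3 (5 and 8 at least 2-fold more positive and more negative), 2 against Organ Pipe National Monument, 50 against Punta Prieta and 149 against San Quintin, and few samples remain. That alternative compares nonmated flies on organ pipe alone in every population. It repeats the contrast of that stratum and is no separate check. The causes of the changes below were not tested.

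Without the dimmest 25% the counts were 2990 for sex by host in Punta Onah (22 mated, 2925 nonmated), 39 for the 2-fold more positive transcripts, 1884 for Organ Pipe National Monument against its other 3, 8 for nonmated flies on organ pipe, 76 for nonmated females on agria, and 3 and 116 for sex by host in Organ Pipe National Monument and San Quintin. Array weights, whose estimation did not fully converge, gave 7010 for sex by host (1017 mated, 7296 nonmated, 1499 in the 3-way test, and 566, 1485 and 1029 in Organ Pipe National Monument, Punta Prieta and San Quintin) and 1441 for sex by mating. They gave 63 and 206 for the 2-fold transcripts, 5123 for Punta Prieta and 2979 for San Quintin against their other 3, 3741 and 3710 for mated and nonmated flies on organ pipe, 6042 for the first 3 strata against the last, and 5413 for nonmated males on organ pipe. For females they gave 3301, 3994, 2509 and 2264 in the 4 strata. The other changes were 697 for sex by mating in a fit to Punta Onah alone, 81 for nonmated females on organ pipe with each array as a replicate, 43 for nonmated flies on organ pipe and 3 for sex by host in Organ Pipe National Monument without the 2 low male arrays, and 2 there after quantile normalization and with the trended prior. Sex by host in San Quintin gave 81 after quantile normalization, 95 with a common array median, 45 with each array as a replicate, 101 with the trended prior and 7 in a fit to San Quintin alone.

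Without each replicate number the counts ranged from 2911 to 3815 for sex by host (0 to 77 mated, 2774 to 3920 nonmated, 25 to 181 in the 3-way test, 0 to 9 in Organ Pipe National Monument, 0 to 5 in San Quintin), and from 45 to 338 for sex by mating. Against their other 3 they were 1045 to 2770 for Organ Pipe National Monument, 987 to 1498 for Punta Prieta and 151 to 927 for San Quintin. By stratum they were 2546 to 4497 for mated flies on agria, 420 to 2228 and 0 to 10 for mated and nonmated flies on organ pipe, and 1372 to 1656 for the first 3 strata against the last. Males gave 3600 to 5364 and 293 to 798 when mated and nonmated on organ pipe, and females 118 to 1930, 25 to 103, 16 to 73 and 21 to 282 in the 4 strata.

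The replicate numbers gave no general pairing of the samples: 3 of 16 male and female pairs of the same number had deviations correlated above 0.1, with a range of -0.285 to 0.325. In 7 of 16 the correlation was better than with the other numbers. These were the 7 pairs with a positive correlation, and deviations within a group sum to 0, so that count is no separate check. All 3 pairs above 0.1 were nonmated flies on organ pipe (0.192, 0.188 and 0.325, with -0.161 for the other pair). With the replicate block the count for that stratum was 15, and no other count moved by over 1.5 times. With 4 arrays per group, small differences within a stratum could be missed.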
